A study of Mus musculus with 2148 samples.

Results

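Newborn and adult wild-type (WT) medullary thymic epithelial cells with high surface MHC class II (mTEChi) were compared as single cells. The comparison and its gene lists were chosen with earlier results of these data known. The members were set by their labels, as all neonate WT mTEChi cells and all adult WT mTEChi cells. They made up 39.9% of the cells in the deposited count matrix. The C57BL/6 newborns were 1 day old with sex labelled unknown, and plates 16 to 20 held 40, 33, 34, 32 and 32 of their mTEChi. The 620 adult cells came from C57BL/6 mice of 4, 5 or 6 weeks and lay on 9 plates of 17 to 87 cells, where plates 1 and 37 to 41 held 4-week males, plate 21 held 4-week females, plate 4 held 6-week males and plate 3 held 12 cells of 5-week and 5 cells of 6-week males. All cells of the comparison were WT. Their sort took live cells without CD45 that carried EpCAM and high MHC class II but not Ly51. Other cells of the study were used beside the comparison and were not members of it. They were adult mTEChi without the gene Aire, cortical cells, and medullary cells low for MHC class II. The adult WT cells low for MHC class II came from males of 4, 5 or 8 weeks. The age and sex of the mice without Aire and of the adult cortical cells are not given here. Each library was 1 cell, made by RamDA-seq, in which random primers let reads cover whole transcripts, those without a poly(A) tail included. Counts were summed per plate, where a plate is a number that the labels give as an experimental batch.

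Medullary thymic epithelial cells present self-antigens of many tissues to developing T cells. Most mTEChi express Aire, a transcriptional regulator that is needed for the expression of many tissue-restricted genes, and some give rise to cells that resemble tuft, keratinocyte, muscle and other peripheral lineages. The fetal and newborn thymus is growing, and its medulla arises from progenitors that share genes with the cortex. Aire in the newborn period is known to be important for lasting tolerance.

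Genes of the sort were present in both groups. Reads of Aire (chromosome 10, 78030022 to 78043610, GRCm38) were at 1158.3, 1371.4, 1800.4, 1661.7 and 1589.6 CPM, the reads of a gene scaled to equal library size, in newborn plates 16 to 20. Adult plates ran from 869.8 to 1789.7 CPM with a median of 1154.1, and the groups overlapped (log2 fold change, newborn minus adult, 0.36 ± 0.17 SE, adjusted p = 0.252). An Aire read was found in 98.8% of newborn and 98.5% of adult cells, and the share of cells with at least 10 Aire reads was 90.6 ± 2.37% (SD, n = 5 plates) against 92.3 ± 4.47% (n = 9), with p = 0.463 by an exact 2-sided permutation test over plates. The MHC class II gene H2-Aa reached 1865.9 ± 260.2 CPM in newborn and 1505.9 ± 204.9 CPM in adult plates (adjusted p = 0.106), and the costimulator Cd80 258.8 ± 14.6 against 248.1 ± 44.9 CPM (adjusted p = 0.683). Of the lists of markers for thymocytes, for myeloid and B cells, for stromal, endothelial and erythroid cells, no tested member (12, 12, 12, 6 and 7 genes) passed the test. The summed level of the 13 thymocyte markers was 39.5 to 235.5 CPM in newborn and 57.9 to 155.2 CPM in adult plates, that of the 8 endothelial markers 19.6 to 54.5 against 28.4 to 116.03 CPM, that of the 7 erythroid markers 25.4 to 69.2 against 16.6 to 59.02 CPM, and that of the 12 myeloid and B cell markers 324.4 to 676.4 against 276.8 to 667.3 CPM.

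The mice are not numbered, so a plate is a technical unit, p-values over plates do not measure the spread between mice, and age, plate and the mice of a plate cannot be told apart. The newborn plates also held newborn cortical cells (cTEC, 22 to 37 a plate) and medullary cells low for MHC class II (mTEClo, 11 to 30 a plate), while the adult plates held mTEChi alone. Sex was mixed within each newborn plate, where 24.2 to 37.5% of cells had more Xist than Y-linked reads. Median reads per cell were 390581 to 675187 in newborn and 604236 to 1012150 in adult plates (exact permutation p = 0.00949, adjusted over 7 measures 0.0332).

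Newborn cells carried reads of more genes. After every cell was thinned to 200000 reads, the plate medians were 11753.5, 11790, 11548.5, 11699 and 11582 genes per cell in newborn plates 16 to 20. Adult medians ran from 10396 to 11418 genes. All 5 newborn plates lay above all 9 adult plates, and the means were 11675 ± 105.6 and 11058 ± 314.6 genes (SD; exact permutation p = 0.0015, adjusted p = 0.0105, with 0.0005 the smallest p that 2002 relabellings allow). The difference in genes per cell at 200000 reads, 617.1, became 445.011 with all reads as deposited, where adult cells were deeper, and did not pass the test (adjusted p = 0.407). The share of reads on mitochondrial genes (0.783 against 0.751%), on ribosomal protein genes (0.357 against 0.375%) and on predicted genes (4.40 against 4.42%) did not pass the same test, with p = 0.703, 0.566 and 0.778. Cells with at least 5 reads of the proliferation genes Mki67 and Top2a made up 44.1 to 81.8% of newborn and 34.5 to 70.3% of adult plates (p = 0.166), and none of 48 cell cycle genes passed the test.

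**Figure D1:**
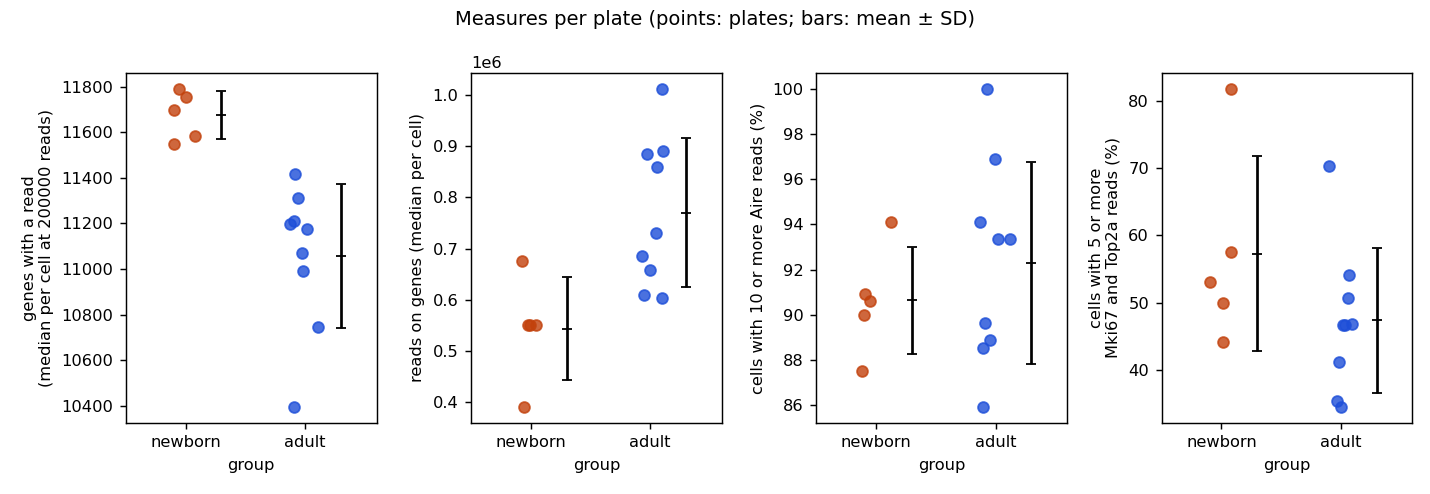
Measures per plate in newborn (5 plates) and adult (9 plates) WT mTEChi, each point a plate and each bar the mean ± SD. The axes, which do not start at 0, give genes with a read at 200000 reads per cell, reads on genes per cell, and the percent of cells with at least 10 Aire reads and with at least 5 Mki67 and Top2a reads, where only the genes per cell separate the groups without overlap.

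Of 30030 genes tested over plates with edgeR, 0.909% were called higher and 1.03% lower in newborn mTEChi, where a call needs a 2-fold difference and a p below 0.05 after Benjamini-Hochberg adjustment. The median log2 fold change of all genes was -0.02. The 5 newborn plates did not overlap the 9 adult plates for 39.6% of the genes called higher and 59.1% of those called lower, against 2.54% of all genes tested (0.852% with every newborn plate above and 1.68% with every newborn plate below). Protein-coding genes made up 67.8% of those higher and 52.3% of those lower, against 60.4% of all genes tested. Results that lead below were also fitted with the 4 adult mouse pools (cells that share an age and sex label) and the 1 newborn pool as a random block. The block fit used limma in place of edgeR, so the method changed together with the block. That fit called 54 genes higher (0.18%) and 23 lower (0.0766%). A fit on pool sums, which also held the pools of mTEClo and of adult cells without Aire, called 0 of 39971 genes. Before adjustment 1.51% of its genes were higher and 0.503% lower at the same p. Of the 46 genes called among those named by rule, 14 kept the call with the block, 31 in all 14 fits that left out 1 plate, and 23 in a fit of the cells with fewer than 5 Mki67 and Top2a reads.

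**Figure D2:**
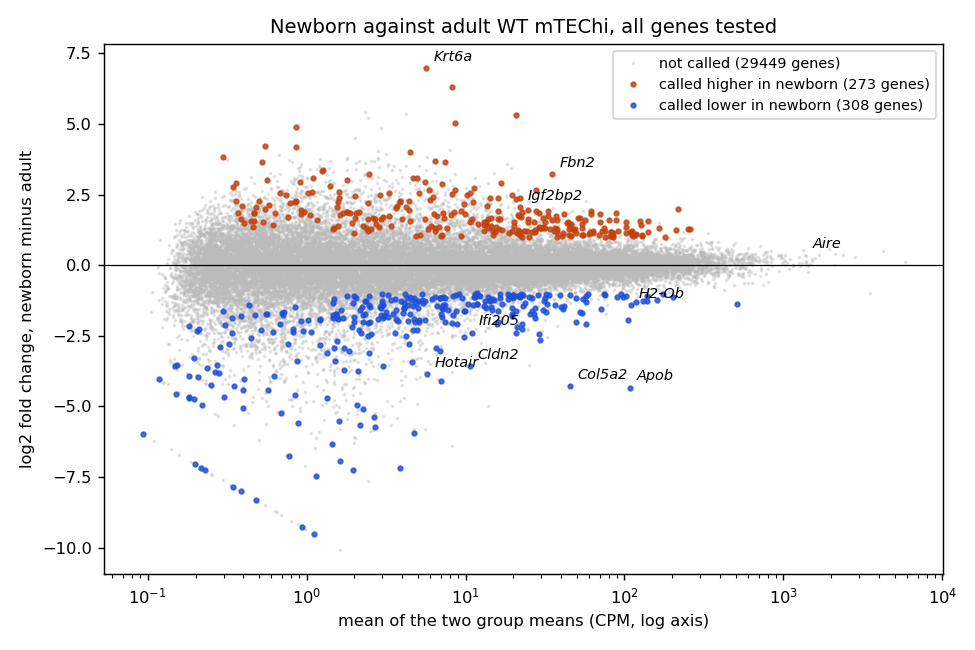
Log2 fold change, newborn minus adult, of the 30030 genes tested against the mean of the group means in CPM (log axis). Each point is a gene, coloured where called higher (0.909%) or lower (1.03%). Of the extracellular matrix genes named in the plot, Fbn2 is among the higher and Col5a2 among the lower.

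The genes with the largest folds upward, among those of at least 10 CPM without overlap of plates, were led by Krt6a, Fbn2, Aldh1a7, Cnga3, Cxcl12, Lrriq4, Pxylp1, Arxes2, Igf2bp2, Mgll and Iapp. Krt6a, a keratin of stressed and outer epithelium (chromosome 15, 101689910 to 101694307), measured 13.5, 0.757, 10.4, 22.7 and 8.78 CPM in newborn plates 16 to 20 and at most 0.268 CPM in any adult plate (log2 fold change 6.98 ± 1.00 SE, adjusted p = 0.00281). Only 13.5% of newborn and 0.806% of adult cells had a Krt6a read. Because Krt6a has a near-identical neighbour in the keratin cluster, the split of reads between them is uncertain.

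Fbn2, which encodes the microfibril protein fibrillin-2 (chromosome 18, 58008623 to 58210487), reached 39.7, 90.0, 67.6, 88.4 and 30.4 CPM in newborn plates 16 to 20. In the adult plates it lay between 2.05 and 13.9 CPM with a median of 5.28. Every newborn plate was at least 2-fold above every adult plate, and the log2 fold change was 3.23 ± 0.45 (adjusted p = 0.0023, and 0.0123 with the mouse pool block). In the cells with fewer than 5 Mki67 and Top2a reads the log2 fold change of Fbn2 was 1.31 and the call was lost (adjusted p = 0.437). By mouse pool Fbn2 measured 60.8 CPM in newborns and 5.91, 5.63, 9.75 and 8.62 CPM in 4-week male, 5-week male, 6-week male and 4-week female adults. A read of Fbn2 was present in 34.5% of newborn and 10.0% of adult cells.

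Igf2bp2, an RNA-binding protein of the family that stabilises fetal growth transcripts (chromosome 16, 22059009 to 22163299), was among the most even differences. Newborn plates 16 to 20 gave 34.2, 43.8, 35.4, 31.2 and 32.1 CPM and adult plates 5.15 to 11.6 CPM, with a median of 9.15. The log2 fold change was 2.05 ± 0.21 (adjusted p = 0.000471, and 0.0062 with the mouse pool block), and 77.2% of newborn against 30.97% of adult cells had a read. Pxylp1, a phosphatase that acts on the linker xylose of glycosaminoglycan chains, gave 28.8, 20.3, 25.8, 40.2 and 57.5 CPM against 5.20 to 9.81 CPM (log2 fold change 2.35 ± 0.24, adjusted p = 0.000471, and 0.0062 with the block). Without the cells rich in Mki67 and Top2a reads, Igf2bp2 kept its call (1.99, adjusted p = 0.0185) and Pxylp1 did not (2.33, adjusted p = 0.061). In both genes the lowest newborn plate was above the highest adult plate by about 2-fold or more.

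Mgll, the lipase of the endocannabinoid 2-arachidonoylglycerol, was the most abundant of these. It measured 354.9, 249.6, 285.04, 446.5 and 381.98 CPM in newborn plates 16 to 20 and 45.2 to 163.9 CPM, median 81.1, in adult plates (log2 fold change 1.98 ± 0.26, adjusted p = 0.00147). Reads of Mgll were found in 97.1% of newborn and 60.5% of adult cells. Iapp, the islet hormone amylin and a classical tissue-restricted antigen, gave 54.03, 93.4, 123.5, 62.9 and 153.5 CPM against 10.8 to 44.5 CPM (log2 fold change 1.93 ± 0.34, adjusted p = 0.00907). With the mouse pool block Mgll kept its call (adjusted p = 0.0066) and Iapp lost it (adjusted p = 0.0749).

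The other 5 genes of this group had log2 fold changes of 2.24 to 2.66. Aldh1a7, a cytosolic aldehyde dehydrogenase, ranged from 24.5 to 93.4 CPM in newborn and 0.544 to 19.6 CPM in adult plates (2.66 ± 0.62, adjusted p = 0.0302). Cnga3, a channel subunit of cone photoreceptors, ranged from 8.16 to 46.7 against 0.675 to 5.61 CPM (2.56 ± 0.52, adjusted p = 0.0168). Without newborn plate 19, its highest, Cnga3 was no longer called, and Aldh1a7 lost its call in 6 of the 14 fits that left out 1 plate. Both lost it with the mouse pool block (adjusted p = 0.133 and 0.0917). Lrriq4 ranged from 6.16 to 19.7 against 1.11 to 3.15 CPM (2.41 ± 0.35, adjusted p = 0.00285). Arxes2 ranged from 10.9 to 30.1 against 1.498 to 6.43 CPM (2.24 ± 0.33, adjusted p = 0.00318), and reads of Arxes2 cannot be fully separated from those of its near-identical neighbour Arxes1. With the block the adjusted p of Lrriq4 and Arxes2 were 0.0267 and 0.0193. In the cells with few Mki67 and Top2a reads Cnga3 (0.69, adjusted p = 0.63) and Arxes2 (2.41, adjusted p = 0.0534) were not called. Aldh1a7 and Lrriq4 were called there (adjusted p = 0.0187 and 0.0308).

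**Figure D3:**
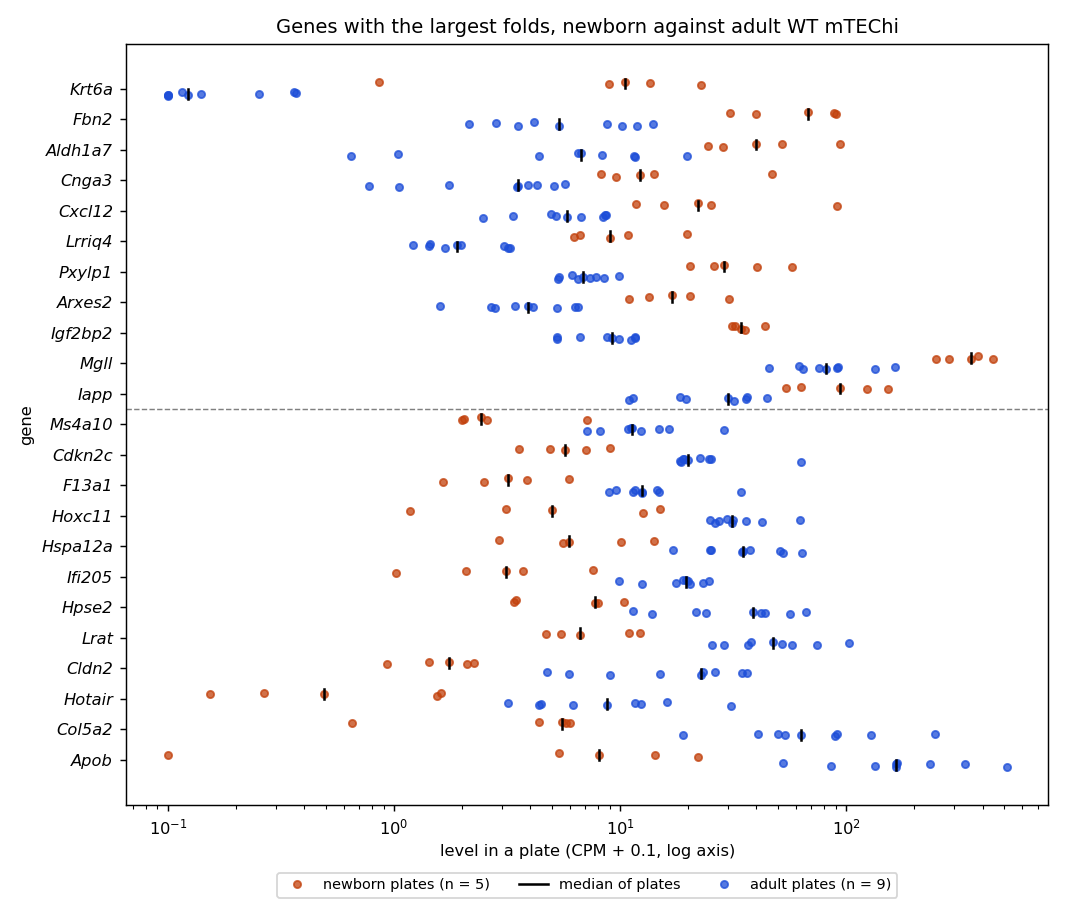
Level in CPM + 0.1 (log axis) of the named genes with the largest folds in each direction, with 5 newborn and 9 adult plates as points and the medians as bars. The groups do not overlap because the genes were chosen for that; above the dashed line newborn plates are higher and below it lower, and Col5a2 of the adult plates reaches 245.4 CPM.

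Downward, the 12 genes were Apob, Col5a2, Hotair, Cldn2, Lrat, Hpse2, Ifi205, Hspa12a, Hoxc11, F13a1, Cdkn2c and Ms4a10. Apob, the structural protein of intestinal and liver lipoproteins (chromosome 12, 7977648 to 8016835), measured 21.9, 5.25, 7.93, 0 and 14.2 CPM in newborn plates 16 to 20. Adult plates ran from 52.3 to 510.4 CPM with a median of 166.2, and the log2 fold change was -4.33 ± 0.83 (adjusted p = 0.0136). The groups did not overlap by plate, but the 12 cells of the 5-week male pool gave 2.25 CPM, below the newborn pool at 11.1 CPM, and with the mouse pool block the adjusted p of Apob was 0.264. In the cells with few Mki67 and Top2a reads Apob was not called either (-4.52, adjusted p = 0.0667). Reads of Apob were found in 14.0% of newborn and 49.4% of adult cells.

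Col5a2, a chain of type V fibrillar collagen (chromosome 1, 45374321 to 45503282), gave 5.88, 4.27, 5.45, 5.67 and 0.552 CPM in newborn plates 16 to 20 against 18.9 to 245.4 CPM, median 62.8, in adult plates. Its log2 fold change was -4.27 ± 0.67 (adjusted p = 0.00456, and 0.204 with the mouse pool block). In the cells with few Mki67 and Top2a reads it was -2.82 and no longer called (adjusted p = 0.0638). All 4 adult pools were above the newborn pool, at 60.96, 139.04, 111.7 and 91.3 against 4.47 CPM for Col5a2. A Col5a2 read was present in 10.5% of newborn and 33.4% of adult cells.

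Hotair and Hoxc11, a long noncoding RNA and a homeobox gene that neighbour each other in the HoxC cluster on chromosome 15 (102944062 to 102947730 and 102954427 to 102957708), were both lower. Hotair gave 1.51, 0.0541, 1.45, 0.389 and 0.166 CPM in newborn plates 16 to 20 and 3.08 to 30.8 CPM, median 8.66, in adult plates (log2 fold change -3.86 ± 0.82, adjusted p = 0.0209). Hoxc11 gave 12.5, 1.08, 14.96, 4.89 and 3.04 CPM against 24.8 to 62.3 CPM, median 31.2 (log2 fold change -2.19 ± 0.50, adjusted p = 0.0293). Reads of Hoxc11 were present in 14.0% of newborn and 43.4% of adult cells. Both genes lost the call without newborn plate 19 or 20 and with the mouse pool block (adjusted p = 0.243 and 0.0958), and strand was not used in the counting. Over 31 Hox genes tested, 1 (Hoxa10, mean 8.32 ± 14.4 against 1.03 ± 0.46 CPM) was called higher and 1 (Hoxc11) lower. The shares over all genes tested were 0.909 and 1.03%. The median log2 fold change of the Hox genes was 1.16.

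Lrat, which esterifies retinol for storage, ranged from 4.60 to 12.2 CPM in newborn and 25.5 to 102.7 CPM in adult plates (log2 fold change -2.65 ± 0.39, adjusted p = 0.00318). Cldn2, a pore-forming tight junction claudin, ranged from 0.827 to 2.15 against 4.67 to 36.1 CPM (-3.58 ± 0.55, adjusted p = 0.00398). Cdkn2c, the INK4 family inhibitor of the cyclin D kinases, ranged from 3.48 to 8.92 against 18.3 to 62.9 CPM (-2.07 ± 0.35, adjusted p = 0.00716), and 33.3% of newborn against 68.1% of adult cells had a Cdkn2c read. These 3 genes kept the call in every fit that left out 1 plate, but with the mouse pool block none did (adjusted p = 0.0801, 0.228 and 0.0637). The remaining 4, the heparanase relative Hpse2, the Hsp70 family member Hspa12a, the coagulation factor chain F13a1 and Ms4a10, had log2 fold changes of -2.39, -2.26, -2.07 and -2.05 with adjusted p of 0.0157, 0.00907, 0.0127 and 0.0182, and none of them was called with the block. For Hspa12a the 5-week male pool, at 7.38 CPM, was below the newborn pool at 7.95 CPM.

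The smallest adjusted p of all genes belonged to H2-Ob, the beta chain of H2-O, which inhibits the peptide exchange factor H2-M during loading of MHC class II. H2-Ob (chromosome 17, 34238903 to 34254414) gave 57.9, 60.1, 73.4, 57.8 and 46.6 CPM in newborn plates 16 to 20 and 137.5 to 200.1 CPM, median 160.4, in adult plates. The log2 fold change was -1.40 ± 0.12 (adjusted p = 0.000236, and 0.0062 with the mouse pool block), and the highest newborn plate was well below the lowest adult plate. By mouse pool H2-Ob was at 58.5 CPM in newborns and at 159.5, 149.4, 194.5 and 147.5 CPM in adults.

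H2-Ob was the single call among 16 class II genes, whose median log2 fold change was 0.10 against -0.02 over all genes. Of all genes tested 1.93% were called in either direction. Its partner chain H2-Oa ran from 90.7 to 173.8 CPM in newborn and 107.6 to 170.8 CPM in adult plates (log2 fold change -0.18, adjusted p = 0.549). The H2-M chains H2-DMa, H2-DMb1 and H2-DMb2 had log2 fold changes of 0.27, -0.19 and 0.09 (adjusted p = 0.257, 0.283 and 0.669). The class II transactivator Ciita stood at -0.29 (adjusted p = 0.238). Among the 16 genes of the class I pathway list 0 were called at 2-fold, while H2-M3 (-0.68), the transactivator Nlrc5 (-0.42) and the immunoproteasome subunit Psmb8 (-0.48) were lower at adjusted p of 0.00281, 0.0204 and 0.044. That list leaves out most class I genes of the H2 region. Of 22 protein-coding class I genes taken by their H2 symbols, a set added after values were seen, 1 was called lower, 0 were higher and the median was -0.55. With no minimum fold, 6 passed the test and all were lower, which were H2-M2, H2-M3, H2-Q6, H2-T22, H2-Q7 and H2-Q4. H2-M2, the one past 2-fold, ran from 64.3 to 87.7 against 117.3 to 268.4 CPM (-1.28 ± 0.18, adjusted p = 0.00245, and 0.0749 with the mouse pool block). The annotated pseudogenes H2-T10 (-1.16, adjusted p = 0.0213) and H2-K2 (-1.13, adjusted p = 0.0139) were lower as well, and the classical H2-K1 gave -0.03 (adjusted p = 0.887). Reads of such paralogs may be split among them.

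Genes of the fetal growth and imprinted list moved one way where they were called. Of 29 tested, 6 were higher (Igf2bp2, Hmga1, Peg3, Zim1, Meg3 and Nnat) and 0 were lower, against 0.909 and 1.03% of all genes tested. The median log2 fold change was 0.60. Only Igf2bp2 kept its call with the mouse pool block, where the other 5 had adjusted p of 0.0503 to 0.419. It was also the only one called in the cells with few Mki67 and Top2a reads. Hmga1, Peg3, Meg3 and Nnat had adjusted p of 0.265, 0.165, 0.133 and 0.351 there, and Zim1 had no value. Hmga1, an architectural chromatin protein of growing cells, gave 8.43, 9.46, 10.0, 8.45 and 9.28 CPM in newborn plates 16 to 20 against 2.01 to 5.68 CPM (log2 fold change 1.33 ± 0.24, adjusted p = 0.0113). The paternally expressed Peg3 gave 174.97, 58.2, 187.3, 97.8 and 232.9 CPM against 31.7 to 97.3 CPM, so that one newborn plate lay within the adult range (1.52 ± 0.32, adjusted p = 0.0204). Zim1, next to Peg3 on chromosome 7, varied from 0.469 to 130.7 CPM among newborn plates, against 0 to 5.21 CPM in adult plates (5.30 ± 1.399, adjusted p = 0.049), and only 9.36% of newborn cells had a Zim1 read. Meg3, a maternally expressed noncoding RNA, varied from 1.28 to 18.6 against 0.0412 to 4.26 CPM (3.68 ± 0.94, adjusted p = 0.0428). Zim1 lost its call in 12 and Meg3 in 9 of the 14 fits that left out 1 plate.

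Other members of that list did not pass the test. H19 ranged from 2.02 to 82.3 CPM in newborn and 1.07 to 47.6 CPM in adult plates (log2 fold change 1.54, adjusted p = 0.266). Igf2 was below 4 CPM in every newborn plate and gave -0.54 (adjusted p = 0.669). Hmga2 gave 2.08 (adjusted p = 0.303), Igf2bp3 0.68 (adjusted p = 0.217) and Lin28b -0.45 (adjusted p = 0.485).

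The extracellular matrix list had 4 higher and 1 lower of 66 genes, against 0.909 and 1.03% of all genes tested, with a median log2 fold change of 0.47. Microfibril and elastic fibre genes gave 3 of the 4, which were Fbn2, Mfap5 (10.6 to 43.3 against 1.10 to 11.8 CPM, 1.93 ± 0.49, adjusted p = 0.0437) and the TGF-beta binding protein Ltbp3 (25.7 to 85.8 against 14.4 to 49.2 CPM, 1.25 ± 0.31, adjusted p = 0.0398). The basement membrane collagen Col4a2 gave 188.4, 283.4, 169.3, 169.7 and 148.98 CPM in newborn plates 16 to 20 against 58.4 to 109.1 CPM (1.17 ± 0.15, adjusted p = 0.00146). With the mouse pool block Fbn2 and Col4a2 kept the call, while Mfap5 and Ltbp3 lost it there (adjusted p = 0.226 and 0.28) and in 10 and 9 of the 14 fits that left out 1 plate. Col5a2, above, was the 1 gene in the opposite direction, and it was the only one of 11 fibrillar collagens called. The summed level of 12 stromal markers moved with these genes, at 698.7 to 1219.1 CPM in newborn and 282.6 to 749.6 CPM in adult plates, with Col1a1 at 143.3 to 315.7 against 1.81 to 198.9 CPM and Dcn at 36.96 to 91.4 against 12.7 to 48.9 CPM. No stromal marker was called on its own, and the median log2 fold change of that list was 0.20. Col1a2 did not rise, at 2.62 to 18.46 against 2.68 to 24.8 CPM. Nor did Dpt, at 0.397 to 2.90 against 0.263 to 7.09 CPM. Col3a1 was at 172.97 CPM on newborn plate 19 and at 0.387 to 2.34 CPM on the other newborn plates. Twist1, Prrx1 and Gli1 of the same list were at 0 in at least 1 newborn plate, and Twist1 and Prrx1 in at least 1 adult plate as well. The part of stromal RNA in the matrix result was not tested.

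Genes of the cortex and of progenitors shared by cortex and medulla gave 3 higher and 1 lower of 19 (median 0.32). Of all genes tested 0.909% were higher and 1.03% lower. Only Ctsl kept its call with the mouse pool block (adjusted p = 0.0208), and Cxcl12, Pax1 and Ly75 did not (adjusted p = 0.112, 0.148 and 0.0669). Ctsl and Pax1 were not called in the cells with few Mki67 and Top2a reads (0.84 and 1.04, adjusted p = 0.265 and 0.199). Ly75 kept its call there (adjusted p = 0.0129). Cxcl12, the chemokine of incoming thymocytes, measured 11.6, 91.3, 22.1, 15.5 and 25.1 CPM in newborn plates 16 to 20 and 2.36 to 8.59 CPM in adult plates (2.50 ± 0.43, adjusted p = 0.00791), and it was at 0.97 (adjusted p = 0.216) in the cells with few Mki67 and Top2a reads. The protease Ctsl ranged from 115.8 to 182.6 against 49.1 to 124.1 CPM (1.04 ± 0.18, adjusted p = 0.00752) and the transcription factor Pax1 from 96.4 to 210.4 against 32.3 to 109.7 CPM (1.17 ± 0.28, adjusted p = 0.0359). Pax1 lost its call in 8 and Ctsl in 3 of the 14 fits that left out 1 plate. Psmb11, the thymoproteasome subunit, was found in 69.6% of newborn and 21.9% of adult cells, at 14.6, 35.8, 27.99, 17.5 and 9.89 CPM against 2.65 to 23.5 CPM (1.39 ± 0.49, adjusted p = 0.116). Ly75, the endocytic receptor DEC-205 that cortical cells also carry, was lower instead, at 77.3, 137.1, 89.1, 78.03 and 94.5 against 154.995 to 297.2 CPM (-1.22 ± 0.19, adjusted p = 0.00404).

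The newborn cTEC sorted onto the same plates held these genes at far higher levels, with 1099.6 CPM of Cxcl12, 1456.6 of Ctsl, 946.01 of Pax1, 915.6 of Psmb11 and 1331.1 of Ly75. The newborn mTEClo of those plates held 630.4, 613.1, 708.6, 283.7 and 612.7 CPM of the same genes. Of all genes tested 3.50% were at least 5-fold higher in newborn cTEC or mTEClo than in newborn mTEChi, against 6.96% of the genes called higher and 11.4% of those called lower. Among the genes tested without such genes, 0.876% were called higher and 0.942% lower. RNA or cells of the other sorts in newborn mTEChi wells were not tested as a source of the cortical genes.

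Signalling genes of the Wnt, Notch, BMP and FGF pathways gave 6 higher and 2 lower of 54 (median 0.29), against 0.909 and 1.03% of all genes. Tcf7l1, a repressive partner of beta-catenin, was the firmest, at 96.0, 104.5, 135.3, 93.3 and 94.3 CPM in newborn plates 16 to 20 against 36.6 to 60.1 CPM (1.31 ± 0.13, adjusted p = 0.000471, and 0.0062 with the mouse pool block). Wnt7b (1.88, adjusted p = 0.0402), the Notch targets Hes1 (1.29, adjusted p = 0.033) and Hey1 (1.55, adjusted p = 0.0301), the inhibitory Smad7 (1.21, adjusted p = 0.00907) and the receptor Fgfr2 (1.02, adjusted p = 0.0274) were also higher. The growth factor Fgf2 was lower, at 1.30, 1.30, 1.31, 2.28 and 1.93 against 4.38 to 13.3 CPM (-2.31 ± 0.33, adjusted p = 0.00293), as was the Wnt antagonist Sfrp1 (-1.09 ± 0.22, adjusted p = 0.018). Sfrp1 lost its call without newborn plate 20 or adult plate 3, and Wnt7b, Hes1, Hey1 and Fgfr2 lost theirs in 12, 8, 6 and 5 of the 14 fits that left out 1 plate. Of these 8 genes only Tcf7l1 kept its call with the mouse pool block, where Fgf2, Sfrp1 and Smad7 had adjusted p of 0.0961, 0.186 and 0.0581. Fgfr2 was at -0.0042 (adjusted p = 0.998) in the cells with few Mki67 and Top2a reads.

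In the polycomb list, 1 of 28 genes was higher and 1 lower (median -0.06), against 0.909 and 1.03% of all genes tested. Cbx6, a chromobox reader of the PRC1 complex, gave 96.999, 166.97, 101.4, 76.4 and 74.1 CPM in newborn plates 16 to 20 against 28.1 to 60.8 CPM (1.53 ± 0.20, adjusted p = 0.00146). Phf1, an accessory subunit of PRC2, ranged from 3.57 to 4.90 against 5.85 to 15.5 CPM (-1.16 ± 0.25, adjusted p = 0.0212). With the mouse pool block Cbx6 kept its call (adjusted p = 0.0153) and Phf1 lost it (adjusted p = 0.193). The PRC2 methyltransferase Ezh2 gave 40.3 to 53.8 against 37.0 to 62.2 CPM (-0.06, adjusted p = 0.819).

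Aire and 22 partner genes had 0 called in either direction (median -0.06), where 1.93% of all genes tested were called. Below 2-fold, the DNA methyltransferase Dnmt3a was higher (330.1 to 536.8 against 213.2 to 321.1 CPM, 0.77 ± 0.12, adjusted p = 0.00498), and the deacetylase Sirt1 and the elongation factor cyclin Ccnt2 were lower (-0.63 and -0.67, adjusted p = 0.0393 and 0.0286). The RANK and NF-kB list likewise had 0 of 22 called (median 0.18), with the feedback inhibitor Tnfaip3 at 179.7 to 360.6 against 89.3 to 174.6 CPM (0.97 ± 0.16, adjusted p = 0.00676). The transcription factor Fezf2 gave -0.10 (adjusted p = 0.733). Chemokines and cytokines (36 genes, median 0.04) and glucocorticoid response genes (14, median -0.16) had 0 called in either direction, and of 19 dissociation and stress genes Egr2 was higher (1.93 ± 0.30, adjusted p = 0.00456). Adult plate 4 had 31.6 CPM of Egr2, above the lowest newborn plate at 30.99 CPM. Among adult plates, Fos, Fosb, Egr1 and Dusp1 were higher on plates 1, 3 and 4 than on the rest. Fos was at 184.3 to 309.8 CPM on those plates and at 36.96 to 76.04 CPM on the rest. Newborn plates had 224.6 to 330.3 CPM of Fos. The part of this split between adult plates in the Egr2 call was not tested. The progenitor keratin Krt5 was the 1 call of 20 medullary progenitor genes (136.2 to 349.97 against 44.1 to 180.8 CPM, 1.32 ± 0.28, adjusted p = 0.0206, median of the list 0.41). Egr2 kept its call with the mouse pool block (adjusted p = 0.0298) and Krt5 lost it (adjusted p = 0.0648). Neither was called in the cells with few Mki67 and Top2a reads (1.83 and 0.75, adjusted p = 0.123 and 0.29).

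Antigen genes and the lists of peripheral lineages had 0 to 2 calls each, where 1.93% of all genes tested were called in either direction. Iapp was 1 of 32 classical autoantigens (median 0.02), and Ins2 ranged from 1.06 to 17.5 against 0 to 104.6 CPM (-1.09, adjusted p = 0.611). None of 5 casein cluster genes was called (median 0.17), with Csn2 at 530.1 to 889.8 against 513.1 to 818.5 CPM (0.17, adjusted p = 0.50). In the tuft list 2 of 15 were lower and the median was -1.20. They were the leukotriene synthase Ltc4s (2.41 to 6.06 against 5.20 to 15.7 CPM, -1.60 ± 0.29, adjusted p = 0.00987) and the cytokine Il25, which was at 0 in 3 of 5 newborn plates and at most 1.57 CPM in adult plates. Neither was called with the mouse pool block (adjusted p = 0.0523 and 0.304). The tuft regulator Pou2f3 gave -1.50 (adjusted p = 0.0591) and the channel Trpm5 -0.15 (adjusted p = 0.934).

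One gene each was called in 4 further lineage lists. Krt78 of 18 keratinocyte genes was higher (1.48 ± 0.30, adjusted p = 0.0168, median of the list 0.12), as was Pglyrp1 of 10 microfold genes (1.10 ± 0.27, adjusted p = 0.038, median 0.34). Apob of 18 enterocyte and liver genes (median 0.08) and Hydin of 14 ciliated genes (-2.44 ± 0.49, adjusted p = 0.016, median -0.58) were lower. All 4 lost the call with the mouse pool block, with adjusted p of 0.0637, 0.214, 0.264 and 0.216 for Krt78, Pglyrp1, Apob and Hydin. Pglyrp1 lost it also in 8 of the 14 fits that left out 1 plate and Krt78 without newborn plate 19. As for Apob, the 5-week male pool of Hydin, at 1.25 CPM, was below the newborn pool at 8.71 CPM. Neuroendocrine (15 genes, median -0.57), muscle (16, median -0.02) and goblet and lung genes (17, median 0.53) had 0 called, as did the 5 sex-linked genes. In such sums fewer cells of a lineage and less RNA per cell cannot be told apart.

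**Figure D4:**
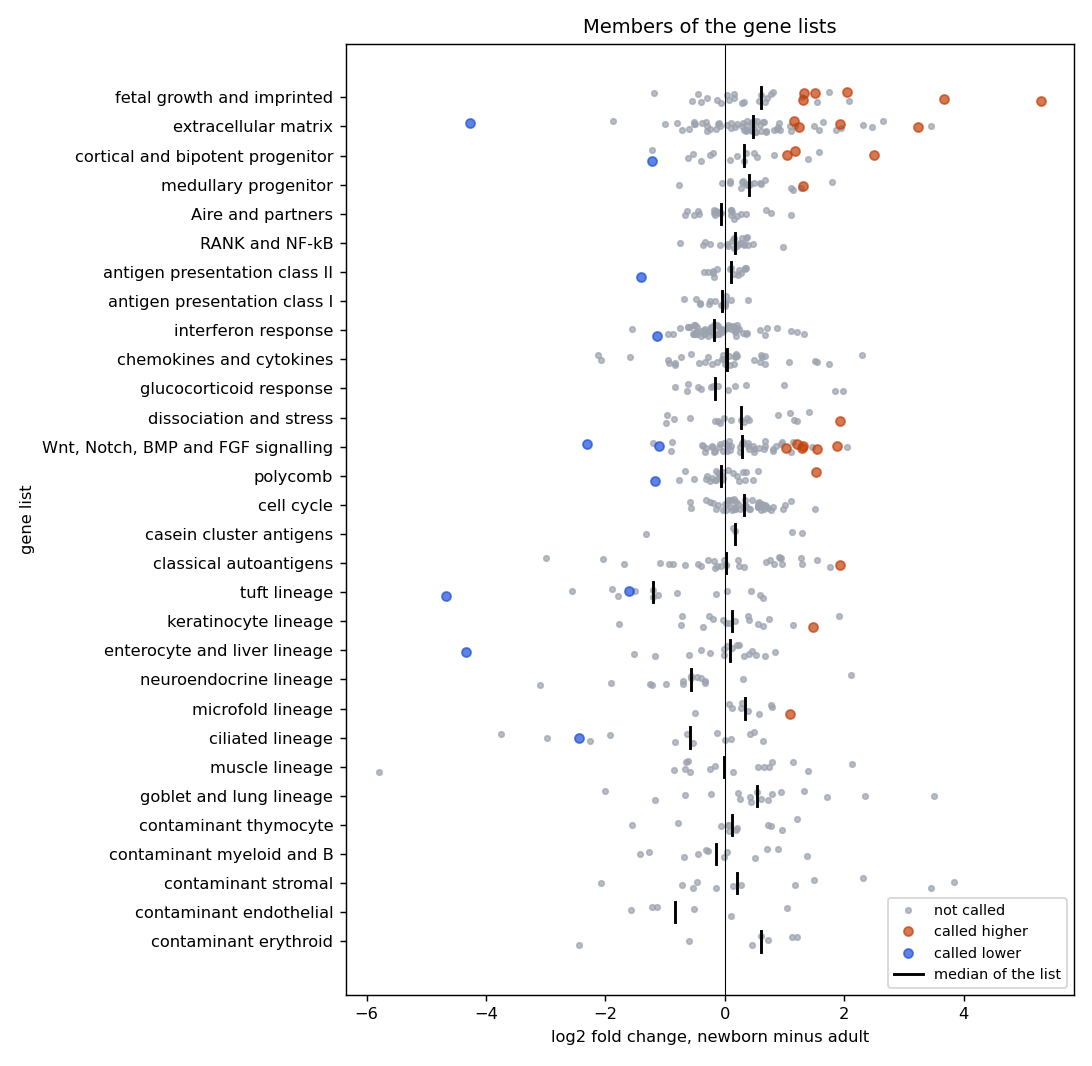
Log2 fold change, newborn minus adult, of each tested member of the gene lists, with members called higher or lower in colour and the median of each list as a black bar. The fetal growth and imprinted list has 6 members called higher and 0 lower, and the tuft list has the lowest median, at -1.20.

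In 1 region of chromosome 1, 4 genes of the Ifi200 family were lower in newborn cells. The family encodes interferon-inducible proteins with a DNA-binding HIN domain, among them the DNA sensor Aim2, and spans 173350879 to 174031810 on chromosome 1. Of 15 genes and pseudogenes tested there, 4 were lower and 0 higher, against 1.03 and 0.909% of all genes tested. Their median log2 fold change was -1.33. Ifi205 gave 1.98, 0.919, 3.03, 3.62 and 7.51 CPM in newborn plates 16 to 20 and 9.79 to 24.6 CPM in adult plates (-2.39 ± 0.42, adjusted p = 0.00907). Ifi203 gave 34.7, 11.6, 23.4, 20.0 and 33.9 against 40.8 to 108.6 CPM (-1.65 ± 0.29, adjusted p = 0.00828). In each the newborn plates were all below the adult plates.

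Ifi211 (7.08 to 17.3 against 23.6 to 45.7 CPM, -1.33 ± 0.21, adjusted p = 0.00526) and Mndal (11.52 to 30.1 against 34.5 to 61.6 CPM, -1.17 ± 0.24, adjusted p = 0.0187) did not overlap between groups either. Aim2 gave -1.07 (adjusted p = 0.0725). The annotated span of Mndal overlaps Ifi211 and Ifi203, and the genes are paralogs, so their counts are not independent and the split among them is uncertain, and the region was singled out after its values were seen. With the mouse pool block the adjusted p of Ifi205, Ifi203, Ifi211 and Mndal were 0.0653, 0.158, 0.0669 and 0.126. In the cells with few Mki67 and Top2a reads they were 0.0831, 0.0548, 0.0485 and 0.224, so that only Ifi211 was called.

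The promoters of these 4 genes share a stretch with GAAA, any 2 letters and GAAA again, the core of an interferon-stimulated response element. The stretches from RefSeq (GRCm38.p6, 5′ to 3′ on the gene's strand, the match in capitals) are shown because the genes moved together, with 10 bases on each side.
Ifi203, chr1:173942508-173942537, minus strand: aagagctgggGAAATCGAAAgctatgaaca
Mndal, chr1:173880204-173880233, minus strand: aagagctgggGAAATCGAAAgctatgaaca
Ifi211, chr1:173913064-173913093, minus strand: caaagccaggGAAATTGAAAgctatgaacg
Ifi205, chr1:174031870-174031899, minus strand: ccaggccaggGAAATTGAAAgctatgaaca
Ifi206, not called, chr1:173491339-173491368, minus strand: tgtctctgagGAAATCGAAAgctatgaacc
The stretches of Ifi203 and Mndal were identical. On either strand the motif was found in 3.44% of 32851 promoter windows (250 bases before to 50 after the start site). By gene, it was found in 3.99% of 27025 genes and in 9 of the 12 tested family genes with a window, called or not. Of the genes called lower with a window 7.89% had it, and of those called higher 5.44%. A match describes letters and not binding.

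The interferon response list, which holds none of these genes, had 0 higher and 1 lower of 64 genes (median -0.17). Over all genes tested 0.909% were higher and 1.03% lower. Gbp6, a guanylate-binding protein, was lower (7.32 to 10.6 against 9.14 to 30.6 CPM, -1.14 ± 0.24, adjusted p = 0.0212), and below 2-fold so were Irf8 (-0.75, adjusted p = 0.0215) and Gbp4 (-0.59, adjusted p = 0.0156). Gbp6 lost its call without newborn plate 16, 19 or 20 and with the mouse pool block (adjusted p = 0.302). Isg15 gave 0.38 (adjusted p = 0.547).

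Reads over 3 microRNA precursor loci were higher in newborn cells, at low levels. Mir23a and Mir27a lie in 1 cluster on chromosome 8 (84208518 to 84208592 and 84208672 to 84208758) and Mir346 lies within the gene Grid1 on chromosome 14 (34894609 to 34894706). These 3 were named after their values were seen, and the reads come from longer RNA over the locus, not from the mature microRNA. Mature sequences from RefSeq are shown to identify the loci, with the seed (bases 2 to 8) in capitals, and the seeds differ among the 3.
miR-23a-3p, chr8:84208563-84208583, plus strand: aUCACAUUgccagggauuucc
miR-27a-3p, chr8:84208727-84208747, plus strand: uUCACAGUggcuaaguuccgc
miR-346-5p, chr14:34894624-34894646, plus strand: uGUCUGCCcgagugccugccucu
Mir27a gave 0.973, 0.703, 1.24, 1.89 and 2.43 CPM in newborn plates 16 to 20 against 0.151 to 0.660 CPM (1.95 ± 0.41, adjusted p = 0.0205). Mir23a gave 0.541 to 1.79 against 0.158 to 0.557 CPM (1.71 ± 0.39, adjusted p = 0.028) and Mir346 0.288 to 0.919 against 0.0308 to 0.247 CPM (2.08 ± 0.43, adjusted p = 0.0187). Only Mir23a overlapped between groups, and 17.0% of newborn against 6.13% of adult cells had a Mir23a read. None of the 3 was called with the mouse pool block (adjusted p = 0.154, 0.187 and 0.138 for Mir27a, Mir23a and Mir346).

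Adult mTEChi without Aire (Aire-KO, 4 plates) were set beside the genes called, without entering the test. They lay on the adult side of the newborn mTEChi level for 95.6% of the genes higher and 93.8% of the genes lower in newborns, against 80.3 and 64.1% of all genes tested with a fold in that direction. All 4 Aire-KO plates lay beyond all 5 newborn plates on that side for 46.5% of the genes higher and 63% of the genes lower, against 17.4 and 16.6%. Because the called genes were chosen for newborn levels far from the adult ones, these shares are a description. Igf2bp2 was at 1.99 to 8.31 CPM and Fbn2 at 1.18 to 10.5 CPM in the Aire-KO plates, where the adult WT plates had 5.15 to 11.6 and 2.05 to 13.9 CPM. H2-Ob was at 200.4 to 365.4 CPM against at most 200.1 CPM in an adult WT plate, and Iapp, at 1.71 to 3.91 CPM, was below every adult WT plate.

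Whether the difference between ages was the same in mTEChi and in mTEClo was tested as an interaction over the WT mTEC plates. The adult WT mTEClo were males of 4 weeks (plate 2), 5 weeks (plate 5) and 8 weeks (plates 32 to 34), so the adult cells of the sorts differed in age and plate, which cannot be told apart from the sort. Newborn mTEChi and mTEClo shared plates 16 to 20, while the fit took their sums as independent. The difference between ages differed between the sorts for 5.91% of 30278 genes. Pxylp1 differed by 2.34 in mTEChi and 0.35 in mTEClo on the log2 scale (adjusted p of the interaction 0.00223), Lrriq4 by 2.40 and -1.93 (adjusted p = 0.0149) and Krt6a by 6.96 and 1.54 (adjusted p = 0.0468). For Igf2bp2 the difference was larger in mTEClo, at 3.91 against 2.04 (adjusted p = 0.00116), as it was for H2-Ob, at -2.76 against -1.41 (adjusted p = 0.0392). Hspa12a and Cdkn2c were lower in newborn mTEChi (-2.27 and -2.07) but at 0.46 and 0.16 in mTEClo (adjusted p = 0.00339 and 0.00573).

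Ly75 was lower in newborn mTEChi and higher in newborn mTEClo, at -1.22 and 2.15 (adjusted p of the interaction 2.4e-05). The cell cycle list had the largest share past the interaction test, 42 of 48 genes (87.5%), against 5.91% of all genes. Mki67 stood at -0.15 in mTEChi and 5.48 in mTEClo (adjusted p of the interaction 0.000293). Of the cortical and bipotent progenitor list 7 of 19 passed, of the microfold list 3 of 10, of the medullary progenitor list 5 of 20 and of the keratinocyte list 4 of 18. In the fetal growth and imprinted list 6 of 29 passed, which were H19, Hmga2, Igf2bp2, Igf2, Airn and Rian. H19 stood at 1.53 in mTEChi and 10.71 in mTEClo (adjusted p = 0.000222) and Hmga2 at 2.05 and 10.49 (adjusted p = 0.00448), while Hmga1, Peg3 and Nnat did not pass (adjusted p = 0.414, 0.209 and 0.127). For Fbn2 (3.23 and 2.66), Cxcl12 (2.50 and 2.68) and Cbx6 (1.52 and 1.498) the interaction did not pass the test, with differences of 0.57 ± 0.67, -0.19 ± 0.70 and 0.02 ± 0.31 (SE).

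**Figure D5:**
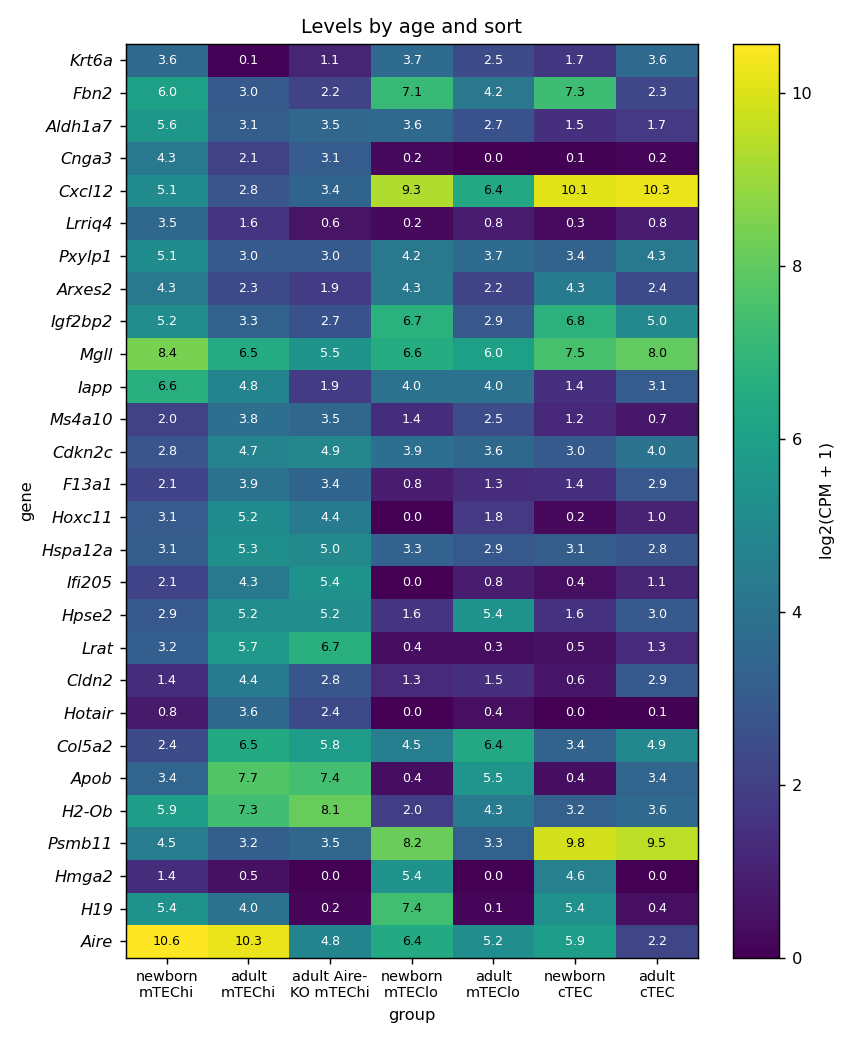
Level as log2(CPM + 1) of the named genes with the largest folds and 5 others in 7 groups by age, sort and genotype, where the first 2 columns are means over plates and the rest are sums over all cells of a group. Fbn2 and Igf2bp2 are higher in each newborn sort than in the adult cells of that sort, and Psmb11 is highest in newborn cTEC.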

How the data were processed

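Per the labels and the study's methods, the authors cleaned reads with fastp 0.20.0, mapped them to mm10 with STAR 2.7.3a, filtered with SAMtools 1.9, removed duplicates with Picard 2.21.1 and counted reads per gene without strand with HTSeq 0.11.2. The 1980 cells include 791 of this comparison, 171 newborn and 620 adult. The deposited values used are raw counts of 48437 genes in 1980 cells with over 200000 reads on over 8000 genes each, a limit the authors set. For 168 cells sequenced in 2 runs, how the runs were combined is not given in the sources used here. A second deposited table of normalised values was not used. Of the genes, 48263 were named from GENCODE M21 (GRCm38).

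Counts were summed over the cells of a plate, from 12684139 to 84464595 reads in adult and 14503495 to 27742671 in newborn plates. They were tested with edgeR 4.0.16 (which called 273 genes higher and 308 lower; quasi-likelihood, TMM, filter on low counts, 12 residual degrees of freedom, R 4.3.3). The tables give CPM from these sums with no pseudocount. Measures per cell were compared by exact permutation over plates. Cells were thinned to 200000 reads (seed 205) to count genes or cells with a read. Limma 3.58.1 and DESeq2 1.42.0 were alternatives. On simulated counts of 28935 genes the test recovered 16, 52, 60 and 64% of genes changed 2-, 4-, 8- and 16-fold, with 2 false calls. 

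Named genes were 25 preset genes, the 12 with the largest fold in each direction (at least 10 CPM in the higher group, no overlap of plates, no predicted genes, pseudogenes, Xist or Y-linked genes), and up to 5 members of each of 31 lists by adjusted p. The comparison, members and lists were chosen with earlier results of these data known. Other genes, the Ifi200 region and the microRNA loci were named after their values were seen. Some genes that this rule names are not reported here.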

Additional observations from a re-analysis of the deposited data

Results flagged for a closer look

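Among 66 sets of plate values (24 genes with the largest folds, Aire, H2-Ob and 7 measures, each in 5 newborn or 9 adult plates), 11 had a plate that stood apart by Dixon's test, where chance gives about 1 in 20. In newborn plates these were Cnga3 at 46.7 CPM on plate 19, Cxcl12 at 91.3 CPM on plate 17, Ms4a10 at 7.02 CPM on plate 20 and the share of mitochondrial reads at 1.00% on plate 18. On adult plate 3, which held 17 cells, Col5a2 at 245.4 CPM, F13a1 at 34.1 CPM, Cdkn2c at 62.9 CPM and the share of ribosomal protein reads at 0.502% stood above the other plates. Hotair at 30.8 CPM and Hoxc11 at 62.3 CPM stood apart on adult plate 38, and Ms4a10 at 28.8 CPM on adult plate 39. Without plate 3 Col5a2, F13a1 and Cdkn2c were still called, and without plate 19 Cnga3 and Ms4a10 were not.

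For 9 of 26 genes examined the difference between ages itself differed between mTEChi and mTEClo (interaction, edgeR with Benjamini-Hochberg adjustment). On the log2 scale, mTEChi minus mTEClo, it was 5.42 for Krt6a, 4.33 for Lrriq4, 1.99 for Pxylp1, -1.86 for Igf2bp2, 5.54 for Ifi205, -2.73 for Hspa12a, 4.94 for Hoxc11, -2.23 for Cdkn2c and 1.35 for H2-Ob. The 5.54 of Ifi205 and the 4.94 of Hoxc11 rest on mTEClo levels near 0 in newborns.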

How the results depend on the processing

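The share of genes called was 0.909% higher and 1.03% lower over plates, and it was smaller in fits that changed the unit of replication. The random block fit also used limma in place of edgeR, with a correlation of 0.0849 within pools. The sums of the mouse pools were fitted together with the pools of the other mTEC groups. Neither of these 2 fits changed the unit alone. The sums of the mouse pools called 0 and 0% (at an unadjusted p under 0.05, 1.51 and 0.503%), plates split by mouse pool 0.394 and 0.344%, and the mouse pool as random block 0.18 and 0.0766%, with 73 of those 77 genes called in the same direction over plates. DESeq2 called 2.54 and 2.85%, equal weight per cell (limma) 1.62 and 0.453%, cells with fewer than 5 Mki67 and Top2a reads 0.551 and 0.538%, and no minimum fold 1.78 and 1.97%. Leaving out the 4-week male pool, which left 3 adult plates, called 0.00395 and 0%, the 5-week pool 0.576 and 0.676%, and the 6-week pool 0.499 and 0.561%. Leaving out 1 plate at a time gave 0.464 to 1.33% higher and 0.531 to 1.45% lower. A count moved by over 1.5 times without newborn plate 17 (0.545 and 0.625%), 18 (0.596 and 0.648%), 19 (0.584 and 0.572%) or 20 (0.464 and 0.531%) or adult plate 37 (0.58 and 0.676%), 40 (0.621 and 0.668%), 41 (0.613 and 0.784%) or 4 (0.657 and 0.685%). Without a filter 0.386 and 0.452% of a longer list were called and with the 5 CPM filter 1.62 and 1.39% of a shorter one, where the counts of genes themselves moved by less than 1.5 times. RLE scaling, all mTEC plates, thinned cells, Aire cells, leaving out the 4-week female pool and leaving out genes high in other newborn sorts (added after seeing the data) changed the counts by less than 1.5 times. Of 46 named genes called, 31 kept the call in all 14 fits that left out 1 plate, 23 without cells rich in Mki67 and Top2a reads and 14 with the mouse pool as random block, and 0 changed sign over 30 alternatives. None of the 12 lower genes with the largest folds was called with the random block. The difference of 617.1 in genes per cell at 200000 reads was 445.011 with all reads as deposited (adjusted p = 0.407). The difference in median reads per cell, -226767, ranged from -259663 to -188511 with 1 plate left out, and missed the threshold without newborn plate 17, 18, 19 or 20 or adult plate 1, 4 or 38. The interaction called 2.88% and 3.03% of genes, and 5.09 and 4.76% by DESeq2. The causes of these changes were not tested. No paired analysis was possible because newborn and adult cells share no plate and the cell numbers in the titles only name cells, so no replicate block could be fitted by number. The plates are not mice, and the 1 newborn pool has no replicate.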
